A study of Homo sapiens and Mus musculus with 10 samples.

Results

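The genes of the DNA replication machinery were described in HEK293T cells under glucose deprivation, under thapsigargin and in a UFD1s-deficient genotype. They were chosen by symbol, as 45 genes with textbook roles in copying DNA, by a rule that uses no measured value. Earlier results of these data were known when they were chosen. Of the 45, 44 had a row in the table of the stress set (16120 rows in all) and 40 had one in the table of the genotype set (11976 rows). For 33 of them both tables held the same transcript, among 10368 transcripts common to the tables, and these 33 were tested together. The 2 tables held different transcripts of CDC45, GINS3, MCM3, ORC4, ORC6, PCNA and RFC3, the stress table alone held MCM10, ORC1, ORC3 and POLE2, and POLD1 was in neither.

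HEK293T is a human embryonic kidney line that carries SV40 large T antigen. RNA was sequenced after removal of ribosomal RNA in 7 HEK293T libraries. The stress set was of wild-type (WT) cells and held 1 library each of GD (24 h of glucose deprivation, which the submitters class as metabolic oxidative stress), of TG (6 h of thapsigargin at 300 nM, which blocks the pump that fills the endoplasmic reticulum with calcium) and of mock treatment. The genotype set held 1 library each of UFD1s-deficient and WT cells under GD and of UFD1s-deficient and WT cells under mock treatment. How the deficient cells were made and from how many clones is not given in the sources used here. In the genotype set the row of UFD1 had 193 reads in deficient GD and 107 in WT GD, and 199 in deficient mock and 168 in WT mock. Whether that row counts the form named in the label is not given, so it does not check the label. No condition was repeated within a set and no label says that libraries came from separate cultures, so p-values measure how unevenly the 3 pairs of GD and mock libraries responded, a spread that may be technical.

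Replication origins are licensed in G1 phase, when the origin recognition complex (ORC), CDC6 and CDT1 load the ring-shaped MCM helicase onto DNA, and geminin (GMNN) blocks CDT1 once S phase has begun. The kinase CDC7 with its activator DBF4, together with CDC45 and the GINS complex, then turns the loaded rings into active helicases. At the fork, polymerase alpha with primase starts each strand, the loader RFC places the sliding clamp PCNA, polymerases delta and epsilon extend, RPA covers single strands, and FEN1 and LIG1 join the lagging-strand fragments. Many of these genes are targets of E2F transcription factors in human cells, and large T antigen binds the RB proteins that hold E2F in check.

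Promoters are shown because about as many members hold the E2F motif as lack it, among them genes that moved in opposite directions. RefSeq promoters (on GRCh38.p14, whereas the authors used hg19, from 250 bases before the start to 50 bases after it) were found for 40 of the 45 members. The E2F motif TTTNNCGC, searched on both strands with overlapping matches kept, was present in 21 of these 40 (52.5%) and in 6.9% of all 35116 promoters of that length. The CCAAT box (CCAAT) was present in 55.0% of the member promoters and 34.6% of all. The CHR motif TTTGAA was in 5.0% of the member promoters and 15.2% of all, and the C/EBP-ATF motif TGATGNAA in 0 of the 40 and 3.6% of all. These letters are a description of the sequence and show no binding. Below are the promoters of the licensing factors CDT1 (chr16:88803539-88803838, plus strand) and CDC6 (chr17:40287629-40287928, plus strand), of the helicase subunit MCM6 (chr2:135876394-135876693, minus strand) and of the flap nuclease FEN1 (chr11:61792661-61792960, plus strand), 5′ to 3′, with E2F matches in capitals. In CDT1 the 2 matches were on the opposite strand, in MCM6 there were 4 matches in 2 overlapping pairs on both strands, in CDC6 there was 1, and in FEN1 there was none.
CDT1: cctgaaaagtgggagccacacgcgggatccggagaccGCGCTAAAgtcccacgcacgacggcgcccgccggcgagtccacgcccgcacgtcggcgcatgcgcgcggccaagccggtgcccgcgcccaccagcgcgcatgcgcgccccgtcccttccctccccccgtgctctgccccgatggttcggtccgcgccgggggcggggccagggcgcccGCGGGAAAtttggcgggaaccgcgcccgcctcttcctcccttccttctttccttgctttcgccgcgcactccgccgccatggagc
CDC6: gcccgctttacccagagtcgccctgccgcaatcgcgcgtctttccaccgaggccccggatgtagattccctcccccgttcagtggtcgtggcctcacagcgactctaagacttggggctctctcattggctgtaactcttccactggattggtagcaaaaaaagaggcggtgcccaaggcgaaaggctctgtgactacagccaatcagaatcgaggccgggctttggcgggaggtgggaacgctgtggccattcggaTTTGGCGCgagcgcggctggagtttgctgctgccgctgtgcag
MCM6: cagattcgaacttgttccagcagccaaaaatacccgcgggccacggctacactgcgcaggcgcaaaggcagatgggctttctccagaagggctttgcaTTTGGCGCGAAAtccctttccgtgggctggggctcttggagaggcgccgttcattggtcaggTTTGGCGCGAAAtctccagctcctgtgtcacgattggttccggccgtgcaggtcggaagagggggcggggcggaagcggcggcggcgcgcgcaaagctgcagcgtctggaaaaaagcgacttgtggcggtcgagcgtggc
FEN1: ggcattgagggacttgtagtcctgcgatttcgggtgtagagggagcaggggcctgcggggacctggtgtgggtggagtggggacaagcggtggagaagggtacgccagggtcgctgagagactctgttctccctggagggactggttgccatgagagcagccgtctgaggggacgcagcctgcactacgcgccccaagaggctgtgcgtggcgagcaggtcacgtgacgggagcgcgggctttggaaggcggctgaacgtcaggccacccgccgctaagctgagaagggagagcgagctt

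Library totals ran from 11461365 to 19024327 reads counted on transcripts. The members took 0.515% of all reads in stress-set GD, 0.657% in TG and 0.664% in mock. In the genotype set the share was 0.607% in deficient GD and 0.639% in WT GD, then 0.667% in deficient mock and 0.681% in WT mock. Of 9 markers listed for the line, VIM (602 to 1277 reads per 1e6 reads, CPM) and NEFL (89.7 to 263 CPM) were highest in every library. LHX1 (6.34 to 23.3 CPM), INA (5.32 to 12.2 CPM) and KRT18 (0.626 to 2.99 CPM) were lower. KRT8 had 0 CPM in stress-set mock and TG, 0.157 CPM in stress-set GD and 2.14 to 6.72 CPM in the genotype set. NEFM had 0.21 to 0.471 CPM in the stress set and no row in the genotype table, and PAX2 and PAX8 had no row. A list of 10 markers of other cells had 6 rows in the stress table and 1 in the genotype table, and PTPRC, CD3E, MS4A1 and DCN had none. It summed to 31.9 and 19.4 CPM in deficient and WT GD, against 64.5 and 52.9 CPM in deficient and WT mock, and in the stress set to 14.5 CPM in GD and 21.9 CPM in TG, against 29.4 CPM in mock, nearly all of it the collagen gene COL1A1. A list of 5 noncoding transcripts used as a sign of RNA quality (MALAT1, NEAT1, SNHG1, GAS5 and the ribosomal precursor RNA45SN5, the last in the stress table alone) summed to 25009 and 28173 CPM in deficient and WT GD, against 18320 and 19992 CPM in deficient and WT mock. In the stress set it summed to 145384 CPM in GD and 101885 CPM in TG, against 94169 CPM in mock. Every transcript of this list was higher in each GD library than in its mock library, and the part of these lists in the results that follow was not tested. In bulk RNA, fewer cells in S phase and less RNA of a gene per cell cannot be told apart.

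Counts are those of 1 RefSeq transcript per symbol and need not be gene totals. All 9 members for which RefSeq lists 1 curated transcript had at least 100 reads in the mock library of each table. Of those with 2 or more curated transcripts, 20 of 35 in the stress table and 14 of 31 in the genotype table had fewer than 100. Over all rows of the stress table, 48.3% of those with 1 curated transcript and 56.1% of those with more had fewer than 100 mock reads, against shares of 23.6% and 38.7% in the genotype table. PCNA, the sliding clamp itself, had 2 reads in stress-set GD, 8 in TG and 2 in mock, on another transcript than the 23 to 36 reads it had in the genotype set. Low counts on such rows describe the transcript that was listed, not the gene.

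Under GD, 3 of the 33 tested members rose and 9 fell relative to mock at an adjusted p under 0.05 (edgeR's quasi-likelihood test, Benjamini-Hochberg adjustment over all 10368 transcripts). The background was 9.75% of all tested transcripts higher and 11.1% lower, so the members' share of rises was near the background and their share of falls stood above it, a difference that was not tested. CDT1, RFC5 and PRIM1 rose. FEN1, GINS4, GINS1, GMNN, POLA2, MCM6, RPA2, RPA1 and POLA1 fell. All 12 moved the same way in each of the 3 pairs. The test itself rests on how evenly these same pairs responded, so this adds no support. The median log2 change of the 33 was -0.01, against -0.02 for all tested transcripts. Scaled by library totals alone, the same test called 683 of all transcripts higher and 1526 lower, against 1011 and 1153 as reported.

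In origin recognition none of the 2 tested members was called. ORC5, an ATP-binding subunit of the complex, had 31.0, 30.7 and 37.9 scaled CPM in the GD libraries of deficient, genotype-set WT and stress-set WT cells, against 28.8, 27.2 and 35.9 in their mock libraries. Its log2 change was 0.11 (adjusted p 0.546 by edgeR). Here and below, scaled CPM is CPM after TMM scaling within each table, and libraries are given in that order. Where GD and mock libraries are said not to overlap, levels are set across the 2 tables, which were scaled apart. The members so described were called on these same libraries. The share of all transcripts without overlap was not counted, so the lack of overlap adds no support.

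Among genes of helicase loading, 1 of 8 tested members rose and 2 fell, with CDT1 and its inhibitor GMNN in opposite directions. CDT1, which brings the MCM ring to the origin, had 261, 487 and 262 scaled CPM in GD libraries, against 138, 238 and 103.5 in mock libraries. Within every pair the GD library was the higher, although deficient GD and stress-set GD lay only slightly above genotype-set WT mock. The log2 change was 1.09 (SE 0.0992, adjusted p 0.00033 by edgeR). GMNN, the inhibitor of CDT1, had 13.6, 16.9 and 4.41 scaled CPM in GD libraries, against 19.8, 23.1 and 7.14 in mock libraries. It was lower under GD in every pair, with a log2 change of -0.56 (SE 0.173, adjusted p 0.0472 by edgeR), which lies next to the threshold and passed it neither with RLE size factors (adjusted p 0.0537) nor in DESeq2 (adjusted p 0.103). MCM6, a subunit of the ring, had 368, 378 and 364 scaled CPM in GD libraries, against 483, 463 and 537 in mock libraries. The 3 GD libraries lay below all 3 mock libraries (log2 change -0.42, SE 0.0903, adjusted p 0.0118 by edgeR). Of the other ring subunits, MCM2 had a log2 change of 0.08 (adjusted p 0.565) and MCM5 one of -0.01 (adjusted p 0.931). The median of the 8 was 0.02, and -0.06 when libraries were scaled by their totals alone.

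**Figure D1:**
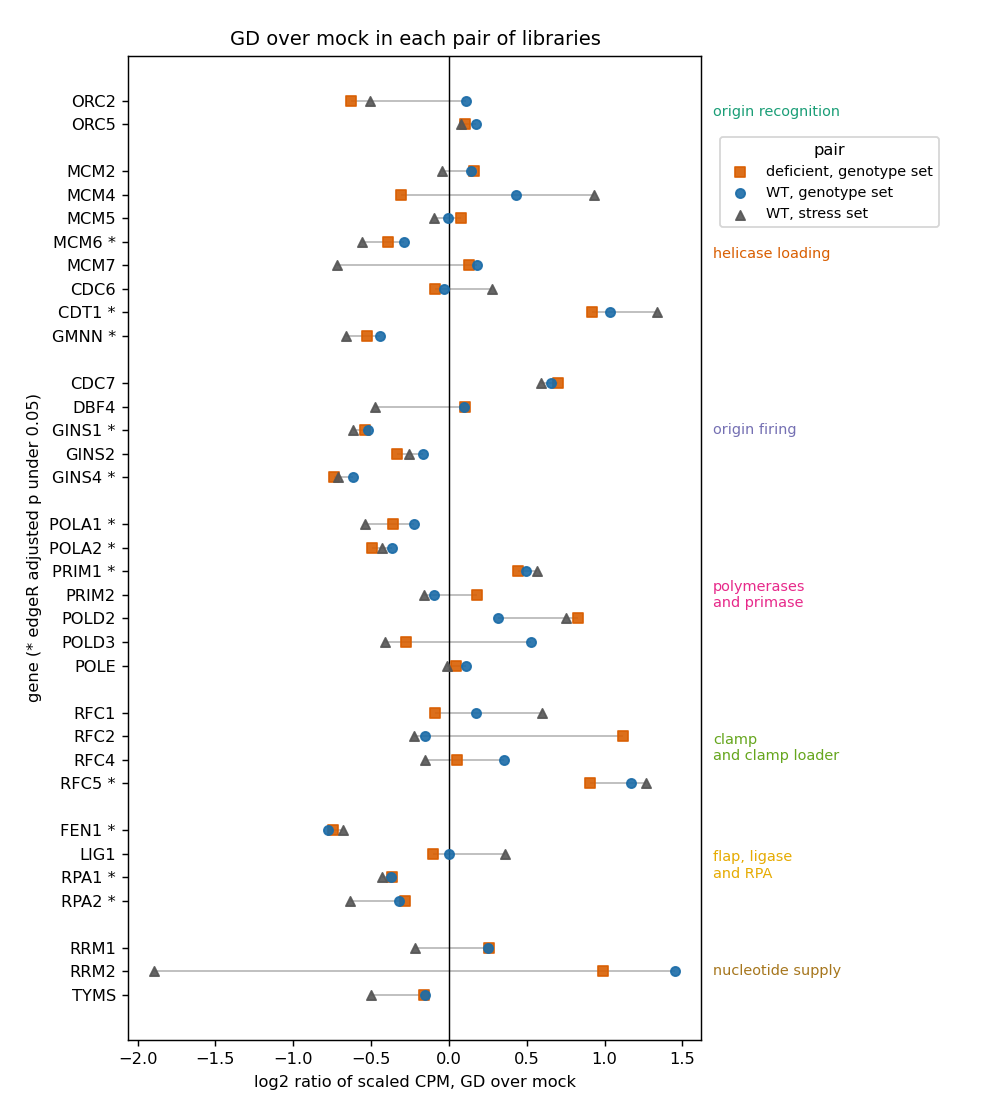
Log2 ratio of scaled CPM, GD over mock, for the 33 members with the same transcript in both tables (rows, grouped by role), with 1 point for each pair of libraries (squares deficient, circles genotype-set WT, triangles stress-set WT) and a star at members with an edgeR adjusted p under 0.05. CDT1, PRIM1 and RFC5 lie right of 0 in all 3 pairs and 9 starred members lie left of it, while MCM2, MCM7, CDC6, DBF4, POLE, RFC4, RRM1 and RRM2 have the stress-set point on the other side of 0 from the other two.

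Among genes of origin firing, 2 of 5 tested members fell and none rose, and the median log2 change was -0.26. GINS1 (PSF1), a subunit of the GINS complex, had 88.6, 100.2 and 101.8 scaled CPM in GD libraries, against 129, 144 and 156 in mock libraries. GINS4 (SLD5), another subunit, had 91.2, 96.5 and 95.3 scaled CPM in GD libraries, against 152, 148 and 156 in mock libraries. For both subunits every GD library lay below every mock library. The log2 change was -0.57 for GINS1 (SE 0.0882, adjusted p 0.0030 by edgeR). It was -0.70 for GINS4 (SE 0.0884, adjusted p 0.0012 by edgeR). GINS2, the third subunit tested, had a log2 change of -0.26 and did not pass (adjusted p 0.0855), nor did the kinase CDC7 at 0.69 (adjusted p 0.0580, 48 to 136 reads per library).

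The members of the polymerase alpha and primase complex split, with POLA1 and POLA2 lower and PRIM1 higher. POLA1, the catalytic polymerase subunit, had 641, 671 and 608 scaled CPM in GD libraries, against 823, 784 and 882 in mock libraries. POLA2, its accessory subunit, had 166, 186 and 157 scaled CPM in GD libraries, against 235, 239.6 and 212 in mock libraries. PRIM1, the catalytic subunit of primase, had 174, 173 and 218 scaled CPM in GD libraries, against 128, 123 and 147 in mock libraries. For none of the 3 genes did the GD and mock libraries overlap. The log2 change was -0.38 for POLA1 (SE 0.0932, adjusted p 0.0198) and -0.44 for POLA2 (SE 0.0840, adjusted p 0.0075), both by edgeR. For PRIM1 it was 0.50 (SE 0.0843, adjusted p 0.0043 by edgeR). The large primase subunit PRIM2 had a log2 change of -0.03 (adjusted p 0.864) and POLE, the catalytic subunit of polymerase epsilon, one of 0.04 (adjusted p 0.773). Over the 7 tested polymerase and primase genes the median was -0.03.

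Of the clamp and its loader, 1 of 4 tested members was called. The listed transcript of RFC5, a small subunit of the loader, had 79, 88 and 77 reads in GD libraries, against 46, 42 and 44 in mock libraries. As scaled CPM this came to 6.79, 7.91 and 6.29 in GD, against 3.43, 3.29 and 2.44 in mock, with no overlap. The log2 change was 1.20 (SE 0.268, adjusted p 0.0138 by edgeR). The rows of RFC1, RFC2 and RFC4 had 14 to 52 reads per library, and none of the 3 passed the test (adjusted p 0.630 to 0.891).

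The group of flap nuclease, ligase and RPA had 3 of its 4 members lower and a median log2 change of -0.41. FEN1, which trims the flaps of lagging-strand fragments, had 186, 174 and 155 scaled CPM in GD libraries, against 313, 297 and 248 in mock libraries. RPA1, the large subunit of the single-strand binding protein, had 254, 239 and 270.0 scaled CPM in GD libraries, against 327, 309 and 364 in mock libraries. RPA2, its middle subunit, had 120.2, 132 and 118 scaled CPM in GD libraries, against 146, 165 and 184 in mock libraries. In all 3 genes the highest GD library lay below the lowest mock library. The log2 change of FEN1 was -0.74 (SE 0.0826, adjusted p 0.00068 by edgeR). It was -0.39 for RPA1 (SE 0.0816, adjusted p 0.0102) and -0.42 for RPA2 (SE 0.100, adjusted p 0.0176), both by edgeR. LIG1, the ligase that seals the fragments, had a log2 change of 0.08 (adjusted p 0.626).

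**Figure D2:**
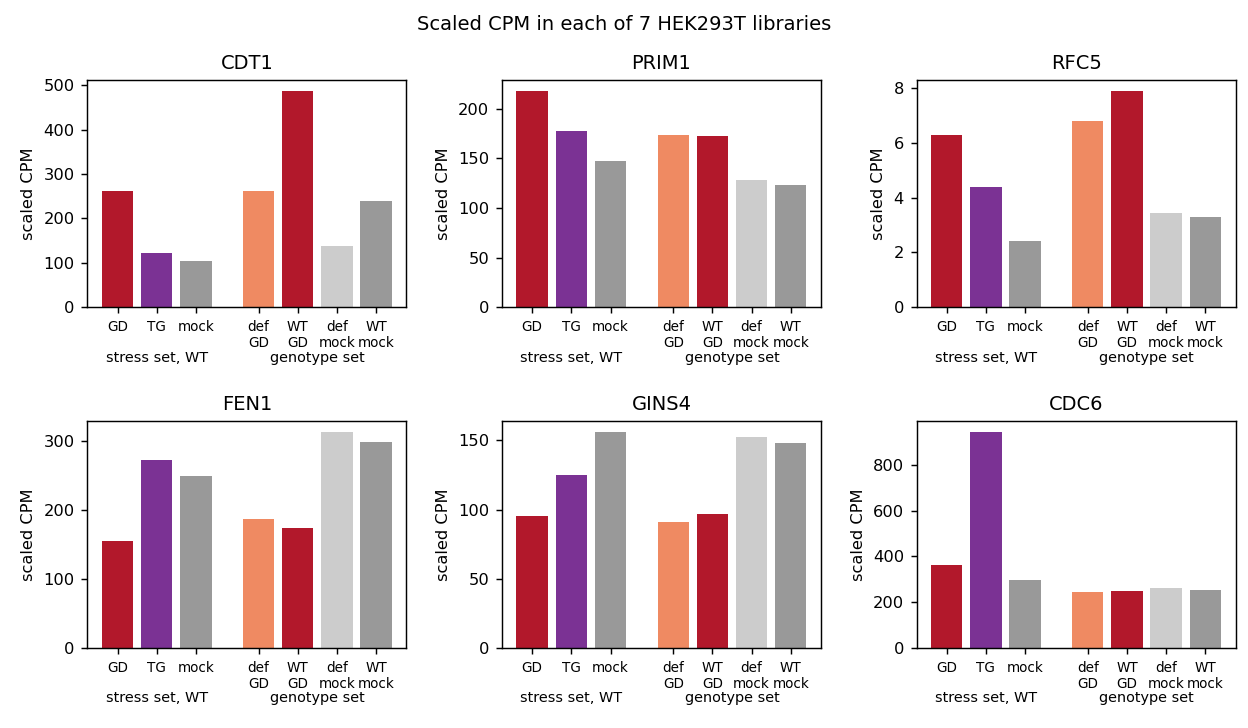
Scaled CPM (bars, from 0) of 6 members in each of the 7 HEK293T libraries, with the stress set on the left and the genotype set on the right of each panel (def, UFD1s-deficient). FEN1 and GINS4 are lower and PRIM1 and RFC5 higher in each GD library than in the mock library of its pair. CDC6 reaches 945 scaled CPM in TG, against 298 in mock.

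None of the 3 nucleotide supply genes was called under GD, and their changes differed between sets, as given further on. The members tested but not named here by the rule for genes with full values were 13, with log2 changes from -0.36 to 0.71 and adjusted p from 0.0580 to 0.934. Taken by stage, the 10 licensing genes tested (1 higher, 2 lower) had a median log2 change of 0.02, the 20 fork and firing genes (2 higher, 7 lower) one of -0.04, and the 3 nucleotide genes one of 0.09. Among the called members, 2 of the 3 that rose and 4 of the 7 with a promoter that fell held an E2F motif, against 8 of the 18 with a promoter that were not called.

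Called in each of 6 fits that left out 1 library were CDT1, GINS4 and FEN1. How many of all transcripts were called in each of these fits was not counted. Without the deficient mock library 1 member was called higher and 2 lower, and 236 and 268 of all transcripts. Without the deficient GD library 1 member was called higher and 2 lower, and 219 and 275 of all transcripts. Without the stress-set mock or the stress-set GD library 7 members were called higher and 11 lower, while the calls over all transcripts came to 1871 and 1970 higher and 1935 and 2069 lower. Leaving the set out of the model called 0 members, and within the genotype set alone, on 4 libraries, 7 members were higher and 11 lower (background 16.1% and 16.7% of 11975 transcripts).

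The genotype set also holds the 7 members whose transcript differed between tables, and none of them passed there (edgeR adjusted p 0.307 to 0.750). Best counted was RFC3, a loader subunit, with 1055 and 1146 reads in deficient and WT GD, against 1427 and 1315 in deficient and WT mock. In that fit the 12 members named above were all called, and MCM2, CDC7, RRM1 and RRM2 were added as higher and GINS2 and TYMS as lower. The smallest of the added changes were 0.15 in log2 for MCM2 (adjusted p 0.0227) and -0.16 for TYMS (adjusted p 0.0429), both by edgeR.

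The size of the GD response differed between the genotype set and the stress set for 8 members, 5 with a positive and 3 with a negative difference (genotype minus stress, edgeR interaction of set and treatment). The response of the genotype set was taken over its deficient and WT pairs, and that of the stress set over WT cells alone, so genotype enters the difference. The 1 residual degree of freedom is how far the deficient and WT pairs of the genotype set differed in response. The background was 5.63% of all tested transcripts with a positive and 4.81% with a negative difference. MCM7, a subunit of the helicase ring, had 78.5 and 115 scaled CPM in deficient and genotype-set WT GD, against 71.6 and 101.8 in their mock libraries, and in the stress set 50.9 in GD against 84.0 in mock. Its GD libraries lay above mock in the genotype set, where it was not called, and below mock in the stress set, with a difference of 0.89 (SE 0.148, adjusted p 0.00037). DBF4, the activator of CDC7, had 55.3 and 72.0 scaled CPM in deficient and genotype-set WT GD, against 51.5 and 67.3 in mock, and in the stress set 55.1 in GD against 76.8 in mock, a difference of 0.60 (SE 0.163, adjusted p 0.0215). It was not called in the genotype set alone (log2 change 0.10, adjusted p 0.460 by edgeR), so the test shows a difference in size between sets and not a change of direction.

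All 3 nucleotide supply genes were among the 5 with a positive difference. RRM1, the large subunit of ribonucleotide reductase, had 959 and 916 scaled CPM in deficient and genotype-set WT GD, against 801 and 769.8 in mock, and in the stress set 781 in GD against 909 in mock. TYMS, which makes thymidylate, had 268 and 265 scaled CPM in deficient and genotype-set WT GD, against 300 and 294 in mock, and in the stress set 215 in GD against 304 in mock. RRM1 under GD thus lay above mock in the genotype set and below it in the stress set, and TYMS was lower under GD in both. The difference was 0.49 for RRM1 (SE 0.0809, adjusted p 0.00037) and 0.36 for TYMS (SE 0.0991, adjusted p 0.0210), both by edgeR. The listed transcript of RRM2, the small subunit of the enzyme, had 41 and 39 reads in deficient and genotype-set WT GD, against 21 and 13 in mock, and in the stress set 0 reads in GD against 15 in mock. Its level in stress-set GD was at least 3.39-fold lower than in mock, with 3 counts per library taken as the floor and the 15 mock reads taken as counted. The exact 95% upper limit of the ratio, which counts the error of both libraries, was 0.411. The fitted difference of this gene is no bound.

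The 3 negative differences were those of CDT1, CDC6 and LIG1. CDT1 was 1.89-fold higher under GD in deficient and 2.05-fold higher in WT cells of the genotype set, and 2.53-fold higher in the stress set (difference -0.34, SE 0.106, adjusted p 0.0410 by edgeR). CDC6, the loading ATPase, had 246 and 248 scaled CPM in deficient and genotype-set WT GD, against 261 and 254 in mock, and in the stress set 362 in GD against 298 in mock. LIG1 had 131 and 144 scaled CPM in deficient and genotype-set WT GD, against 140.3 and 144 in mock, and in the stress set 119 in GD against 92.7 in mock. Both genes were higher under GD in the stress set and at or below mock in deficient cells, with differences of -0.32 for CDC6 (SE 0.0984, adjusted p 0.0404) and -0.39 for LIG1 (SE 0.125, adjusted p 0.0495) by edgeR. DESeq2 called 2 of the 8, MCM7 and RRM1.

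TG was compared with mock in 1 library each, so the difference has no replicate check and no p-value, and 95% intervals cover counting error only. The bound for a change was a 2-fold ratio, with 50 reads or more in the higher library. Of the 29 members with that many reads, 2 were higher and none lower, against a background of 4.73% higher and 3.31% lower among 9116 transcripts. CDC6 had 17617 reads in TG, against 5389 in mock, or 945 against 298 scaled CPM. That is a ratio of 3.17 (95% interval 3.07 to 3.27), and the 4 libraries of the genotype set lay between 246 and 261 scaled CPM. GMNN had 296 reads in TG, against 129 in mock, a ratio of 2.22 (95% interval 1.80 to 2.76). Its TG level of 15.9 scaled CPM lay below the 19.8 and 23.1 of the genotype-set mock libraries, which were scaled in another table.

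Of the 29 members, 25 lay within 0.5 of mock on the log2 scale, and their median was 0.12, against 0.01 for all transcripts with 50 reads. At 1.5-fold, RFC5 with a ratio of 1.81 (95% interval 1.24 to 2.67) and POLD3, an accessory subunit of polymerase delta, with a ratio of 1.68 (95% interval 1.15 to 2.48) were added, so that 4 members were higher and none lower (background 12% and 10.4%). CDT1 had 123 scaled CPM in TG, against 103.5 in mock. FEN1, GINS1 and GINS4 had ratios of 1.10, 0.794 and 0.799 in TG over mock. Since GD and TG were set against the same mock library in the stress set, the 2 sets of ratios share its error. Scaled by library totals alone, the same rule gave 352 transcripts higher and 395 lower in TG, against 431 and 302 as reported.

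**Figure D3:**
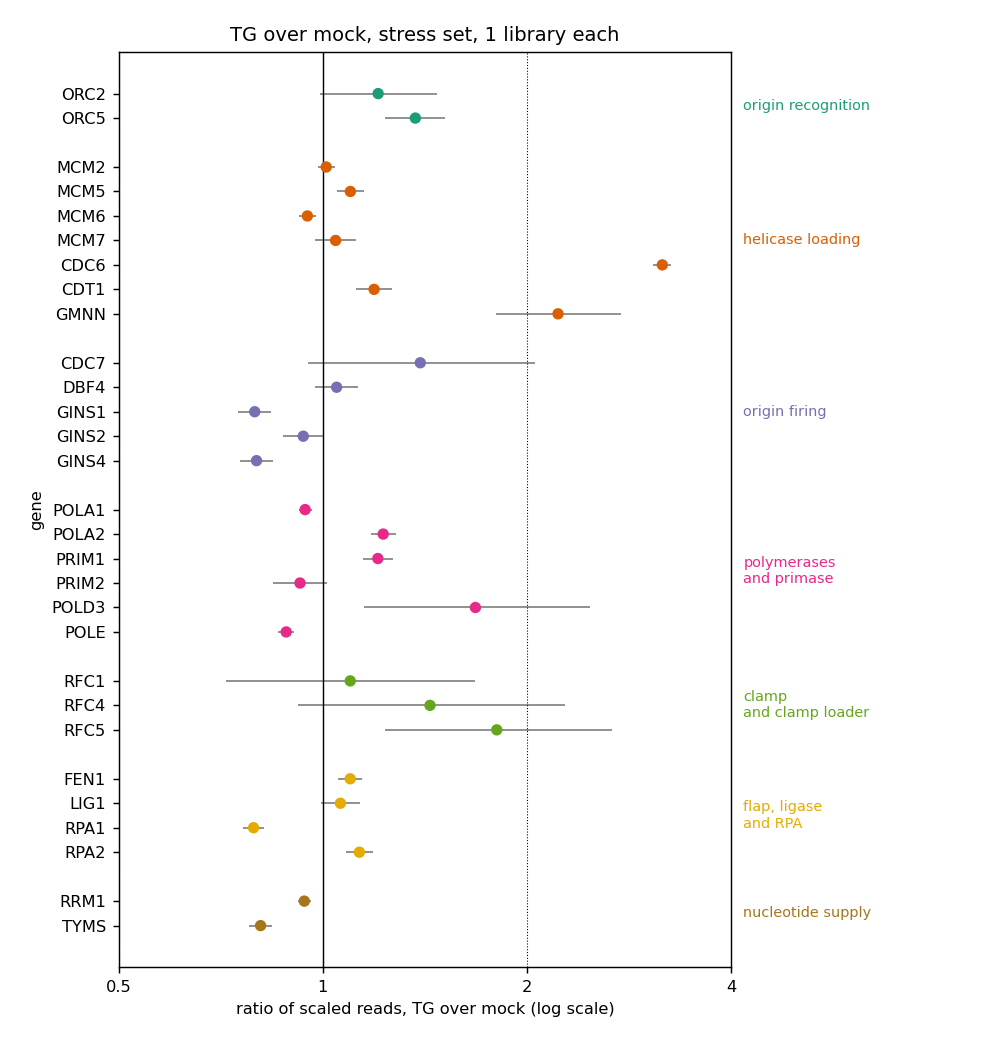
Ratio of scaled reads, TG over mock, on a log axis for the 29 members with at least 50 reads in the higher library (rows, grouped by role), with exact 95% intervals for counting error as lines and dotted lines at 2-fold. CDC6 at 3.17 and GMNN at 2.22 lie past the 2-fold line, and 25 of the 29 lie within 0.5 of mock on the log2 scale.

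By the same rule of size, CDT1 and RFC5 were past 2-fold in GD over mock in stress-set WT cells (background 3.73% higher and 3.57% lower) and in genotype-set WT cells (2.39% and 4.42%), and no member was in deficient cells (2.14% and 4.17%). In deficient cells CDT1 had a ratio of 1.89 and RFC5 one of 1.98 (95% interval 1.36 to 2.91), both next to the bound. Scaled by library totals alone, the stress-set rule gave 241 transcripts higher and 458 lower, against 332 and 318 as reported. The listed transcript of ORC6 had 0 reads in stress-set GD, against 9 in mock. That is at least 2.03-fold lower with the floor of 3 counts per library and the 9 mock reads taken as counted. The exact 95% upper limit of the ratio was 0.747. Other sparse rows rose in that pair. POLE2 had 17 reads in GD, against 4 in mock (ratio 6.27, 95% interval 2.04 to 25.6). CDC45 had 12, against 2 (ratio 8.85, 95% interval 1.97 to 81.4). The genotype table counted another transcript of ORC6, with 126 reads in WT GD, against 91 in WT mock (ratio 1.59, 95% interval 1.20 to 2.10). In deficient cells that transcript had 86 reads in GD, against 105 in mock (ratio 0.943).

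Between genotypes, 1 of the 33 members was lower in UFD1s-deficient than in WT cells over both treatments and none was higher, against a background of 0.781% lower and 0.328% higher. The called member was CDT1, with a log2 change of -0.84 (SE 0.121, adjusted p 0.0174 by edgeR). Its scaled CPM was 261 in deficient GD and 487 in WT GD of the genotype set, and 138 in deficient mock and 238 in WT mock. The deficient library was the lower one in both treatments. The WT libraries of the stress set had 262 in GD and 103.5 in mock, close to the deficient level in GD and below it in mock (scaled in another table). In mock the 2 WT libraries thus differed by more than the genotypes did, and in GD by about as much. Without the deficient mock library the adjusted p of CDT1 was 0.258 and without the deficient GD library 0.611, and 0 members were then called, while its log2 change in these fits was -0.97 and -0.72. At an unadjusted p under 0.05, 0 members were higher and 5 lower, against 5.78% and 8.4% of all tested transcripts, and DESeq2 called 0 higher and 1 lower.

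Within the 4 libraries of the genotype set, CDT1, MCM7, DBF4, GINS2 and POLE were lower and MCM5, another ring subunit, was higher in deficient cells (background 7.56% and 5.92%). The log2 change there was -0.53 for MCM7 (adjusted p 0.00016), -0.38 for DBF4 (adjusted p 0.0107), -0.35 for GINS2 (adjusted p 0.0151) and -0.33 for POLE (adjusted p 0.00014), by edgeR on 1 residual degree of freedom. For MCM5 it was 0.22 (adjusted p 0.0100 by edgeR). In the fit of 6 libraries none of these 5 passed (adjusted p 0.179 to 0.385). Stress-set WT levels, scaled in another table, were as follows in GD and then mock. MCM5 had 186 and 199 scaled CPM, against 376 and 377 in genotype-set WT. MCM7 had 50.9 in GD, below deficient GD at 78.5, and 84.0 in mock, above deficient mock at 71.6. GINS2 had 79.6 and 95.1, above the deficient 56.7 and 71.6. POLE had 563 and 569, close to the deficient 557 and 541. DBF4 had 55.1 and 76.8, against the deficient 55.3 and 51.5. By the rule of size used for TG, which adds a prior count of 5, no member was past 2-fold between genotypes in GD (background 1.38% higher and 1.42% lower) or in mock (1.48% and 1.21%). ORC2, a subunit of the origin recognition complex, lay at that bound in GD, with 50 reads in deficient and 99 in WT cells, a ratio of 0.483 (95% interval 0.337 to 0.685) and a log2 ratio of -0.98 with the prior count. The authors' deposited table of genotype ratios lists 40 members, of which 0 have p under 0.05 in mock and 2 in GD. The share of all rows with such a p was not counted. These ratios come from the same 4 libraries, so they add no support. The 2 are CDT1, with an authors' deposited log2 ratio of -0.90 (p 0.0302), and ORC2, with an authors' deposited log2 ratio of -1.04 (p 0.034).

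**Figure D4:**
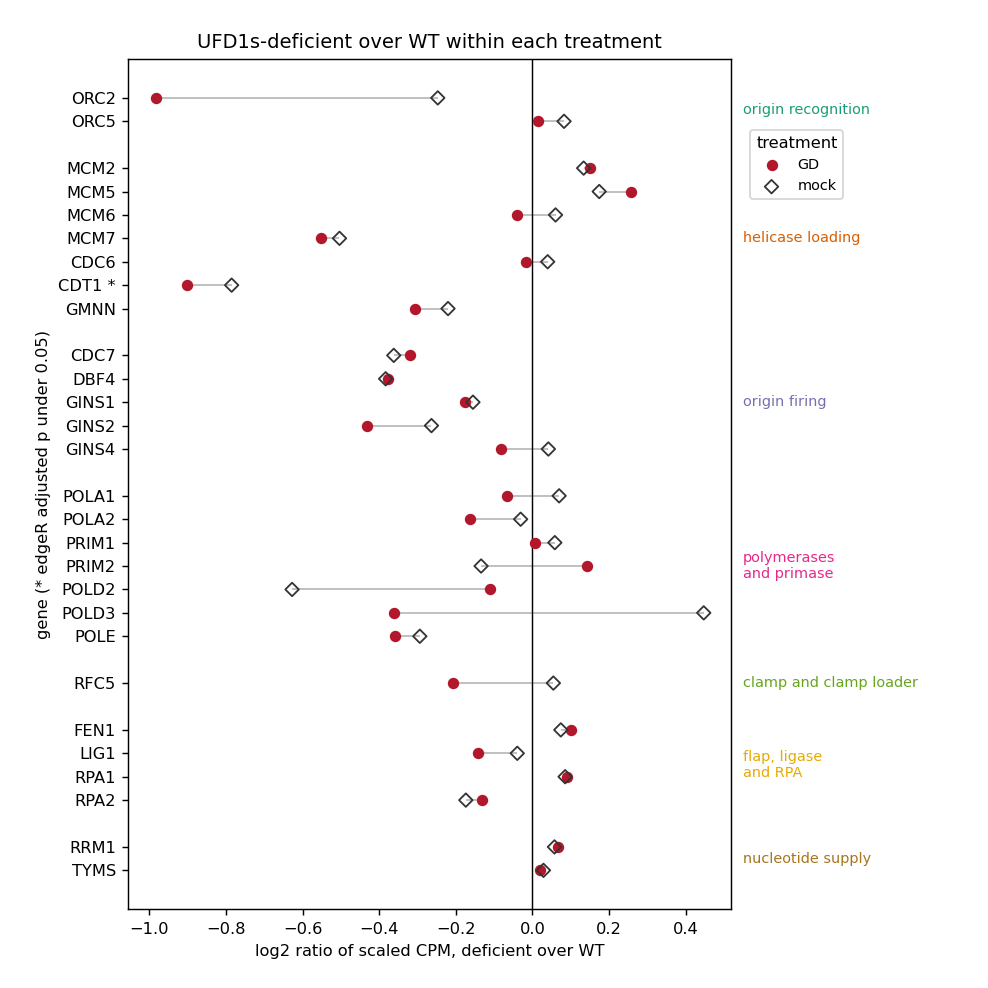
Log2 ratio of scaled CPM, deficient over WT, within GD (filled circles) and within mock (open diamonds) of the genotype set for 28 members with enough reads (rows, grouped by role), with a star at an edgeR adjusted p under 0.05. CDT1 is the starred gene and lies left of 0 in both treatments. So do MCM7, DBF4, GINS2 and POLE and further members, ORC2, GMNN, CDC7 and GINS1 among them.

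The GD response itself was compared between deficient and WT cells by the interaction of genotype and treatment. In this fit the WT response was taken over the WT pairs of both sets. Of the 33 members 0 were called, as were 0% of all tested transcripts in either direction, on 1 residual degree of freedom. That degree of freedom is the difference of the WT response between the sets, so this difference enters the measure of spread. At an unadjusted p under 0.05, 0 members passed in edgeR, against 0.453% of all tested transcripts higher and 0.733% lower, and DESeq2 called 0. The lowest unadjusted p was 0.144, for RFC2. For CDT1 the response in deficient minus WT cells was -0.26 (SE 0.254), and for FEN1 it was -0.01 (SE 0.240). The log2 ratio of CDT1, GD over mock, was 0.92 in deficient, 1.03 in genotype-set WT and 1.33 in stress-set WT cells. The difference between sets thus enters the value of CDT1. With SEs of this size and 0% of all transcripts called, differences well above these could also go undetected.

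Genes around the machinery, from lists chosen with earlier results of these data known, were read in the same fits. The background under GD was 9.75% of all tested transcripts higher and 11.1% lower, and no list was tested against it. Of 19 tested replisome and firing factors outside the member list, 1 rose and 1 fell under GD. These were TIMELESS of the fork protection complex (log2 change 0.49) and DSCC1 of an alternative clamp loader (-0.37). Of 11 chromatin replication genes, none rose and 2 fell, the histone chaperones ASF1B (-1.15) and ASF1A (-0.53). Of 20 other nucleotide enzymes, 4 rose and 3 fell, among them the mitochondrial folate enzyme MTHFD2 (1.57) and the pyrimidine enzyme DHODH (0.62) as higher and the dNTP hydrolase SAMHD1 (-0.67) as lower. Of 21 genes of G1/S control, 3 rose and 6 fell, the D-type cyclins CCND1 (-0.88) and CCND2 (-0.84) among those lower and the RB relative RBL1 (0.69) among those higher.

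Of 7 replication checkpoint genes none was called by edgeR. At an unadjusted p under 0.05, the kinase WEE1 was higher (log2 change 0.31) and RAD1 of the checkpoint clamp lower (-0.39), against 16.6% of all tested transcripts higher and 18.7% lower, and both were named after their values were seen. Between genotypes the lists held 1 call, the RB relative RBL2 among the 21 genes of G1/S control. It was lower in deficient cells (log2 change -0.64, adjusted p 0.0381 by edgeR), against a background of 0.781% lower. In TG, MTHFD2 and the thymidylate kinase DTYMK, of 18 other nucleotide enzymes with 50 reads, were at least 2-fold higher than in mock. So was the checkpoint clamp subunit RAD9A, of 7 checkpoint genes. The histone chaperone NASP, of 11 chromatin replication genes, was at least 2-fold lower. None of 18 replisome and firing factors or 20 genes of G1/S control passed (background 4.73% higher and 3.31% lower).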

How the data were processed

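RNA was measured in 10 libraries. The 7 of HEK293T were used and the 3 of N2a were not used here. Per the labels' protocols, RNA was taken up in TRIzol and prepared with a TruSeq Ribo Profile kit. Tools listed in the submitters' processing notes are cutadapt, FastQC, Bowtie2 and bedtools, with hg19 and mm10 as builds. How reads were counted, and whether by strand, is not given in the sources used here. Deposited values are raw read counts by the authors for 1 RefSeq transcript per symbol, not normalized. The genotype table also holds log2 ratios with p-values by the authors, deficient over WT, which were read only for comparison.

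Genotype and treatment came from the labels. Titles separate the stress set from the genotype set, and the set served as the block that pairs GD with mock. The 6 GD and mock libraries were fitted with edgeR 4.0.16 in R 4.3.3 (quasi-likelihood test, TMM factors, default expression filter, which removed no member) with set, genotype and treatment as terms and 2 residual degrees of freedom. Interactions of genotype or set with treatment left 1. Calls were made at a Benjamini-Hochberg adjusted p under 0.05 over all transcripts. Ratios between single libraries used CPM scaled by TMM, with 5 as the prior count, and ratios in the text have exact conditional 95% intervals. DESeq2 1.42.0 was an alternative.

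The members and lists were chosen with earlier results of these data known. Full values are given for members called in a test, past 2-fold in TG or in a single pair, and otherwise for the member with the highest mean log2 CPM of its role group. From other lists up to 3 called genes with the largest change are named. Further members were picked for the text with their values in view. The test was checked on simulated counts. A planned search for protein motifs was not run.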

Additional observations from a re-analysis of the deposited data

Results flagged for a closer look

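The GD response differed between the genotype set and the stress set for 8 members by the edgeR interaction of set and treatment, all given as log2 differences, genotype minus stress. The genotype-set response was taken over deficient and WT cells and the stress-set response over WT cells alone. MCM7 (0.89), DBF4 (0.60), RRM1 (0.49) and TYMS (0.36) had positive differences. CDT1 (-0.34), CDC6 (-0.32) and LIG1 (-0.39) had negative ones. RRM2 had a fitted difference of 8.04, which depends on the prior count because its listed transcript had 0 reads in stress-set GD. The labels do not say how the sets were prepared, and the cause of these differences was not tested.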

How the results depend on the processing

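The set is the block that pairs GD with mock, taken from the titles, since the labels give no replicate numbers. With no replicate block, 0 members were called higher and 0 lower under GD, and 15 and 9 of all transcripts. For GD over mock, the genotype set alone gave 7 members higher and 1931 and 2003 of all transcripts higher and lower, and the 4 WT libraries alone gave 1 member higher, 3 lower and 224 and 266 of all transcripts. Leaving out 1 library at a time gave 1 to 7 members higher, 2 to 11 lower, 219 to 1970 of all transcripts higher and 268 to 2069 lower. For deficient over WT, the genotype set alone gave 1 member higher and 5 lower, and 709 and 905 of all transcripts. Of all transcripts, 22 were higher with library totals, 13 with a row mean of 100 reads, and 61 higher and 159 lower in DESeq2. Leaving out 1 library gave 0 to 2 members higher, 0 to 5 lower, 2 to 907 of all transcripts higher and 2 to 1031 lower. For the difference between sets, DESeq2 called 2 members higher and 0 lower, and 151 and 128 of all transcripts. For TG, 1.5-fold gave 4 members higher and 1095 and 949 of all transcripts, and no filter on reads gave 1 member lower and 918 and 840 of all transcripts. With library totals 1 member was past 2-fold in genotype-set WT. No value changed sign past its threshold under the alternatives run. Fits with fewer libraries test other samples, and for the other moves the cause was not tested. Of the values of single members under GD, 385 kept their side of the threshold, 47 lost the call and 20 gained one. Depth limits the rows under 100 reads, where only large changes could pass.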
